A study of Mus musculus with 6 samples.

Results

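The subject is a set of 10 cytokine and cytokine receptor genes: Tnf, Il1b, Il1rn, Il1r1, Il1r2, Il6, Il10, Il15, Il18 and Il33. They were taken by symbol, as all probe sets whose platform annotation gives only that symbol. This found all 10 genes, with 13 of the 45037 probe sets that are not controls, among 18193 genes on the array. Transcripts were measured in epididymal white adipose tissue of 10-week-old male mice, in 3 mice heterozygous for the Pparg allele ldi (Pparg ldi/+) and 3 litter-matched wild-type mice. All mice had a mixed C57BL6;129Sv background, and the RNA of 1 mouse went on each Affymetrix MOE430v2.0 array. The labels tie ldi to lipodystrophy and say no more of what the allele is, and the whole pad was taken, so each value mixes adipocytes with blood vessel, stromal and immune cells.

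The interleukins and tumour necrosis factor (TNF) are secreted proteins by which immune and tissue cells signal. Interleukin-1 beta (IL-1β) and TNF act through receptors that lead to the transcription factor NF-kB. IL-1β acts after its precursor has been cut, for instance by the inflammasome enzyme caspase-1. The IL-1 system carries its own brakes: the antagonist encoded by Il1rn occupies the signalling receptor of Il1r1 without activating it, and the receptor of Il1r2 binds IL-1 but has no signalling part. In fat, TNF and IL-1β are known for reducing insulin action in adipocytes, and macrophages are a known source of both.

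Pparg, the gene of the altered allele, had signals of 1732, 1709 and 1901 in Pparg ldi/+ fat, against 4378, 4440 and 4998 in wild-type fat, and fell (log2 difference -1.35). A signal is the deposited intensity after each array was scaled to a trimmed mean of 500. With 3 arrays a group, precision is limited. Differences are of log2(signal + 32), an offset that makes changes of dim genes look smaller, and were tested with limma across 11201 genes with Benjamini-Hochberg adjustment at 0.05. Genes whose mean log2 value over the 6 arrays was under 7.46, a signal of about 145, were not tested and are called dim. The adipocyte markers were bright in both genotypes, led by Fabp4, Adipoq and Cidec: their 7 genes summed to 55857 to 63708 in Pparg ldi/+ fat and to 121560 to 137870 in wild-type fat. Pparg ldi/+ arrays 1 and 2 stood apart in genes of the epididymis, whose 13 listed genes summed to 25470 and 34409 there, 867 on Pparg ldi/+ array 3, and 859 to 1689 in wild-type fat. Values from Pparg ldi/+ array 3 alone against the wild-type arrays are therefore given for each of the 10 genes and for the genes around them named with a call.

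Of the 10 genes, 6 were bright enough to be tested. Il1rn, Il1r1 and Il1b rose in Pparg ldi/+ fat, while Il33, Il15 and Il18 did not pass. The other 4, Tnf, Il1r2, Il6 and Il10, were dim. Across all genes tested, 16.3% rose and 16.4% fell by the same rule. The median log2 difference over all 10 genes, 4 of them dim, was 0.84, beside 0.011 over the 18193 genes. Over the 6 tested it was 0.60, beside -0.0043 over all genes tested. Il1b passed the brightness limit only through its Pparg ldi/+ arrays, so its being tested at all depended on its difference. In whole tissue, more cells of a type and more RNA per cell cannot be told apart.

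**Figure D1:**
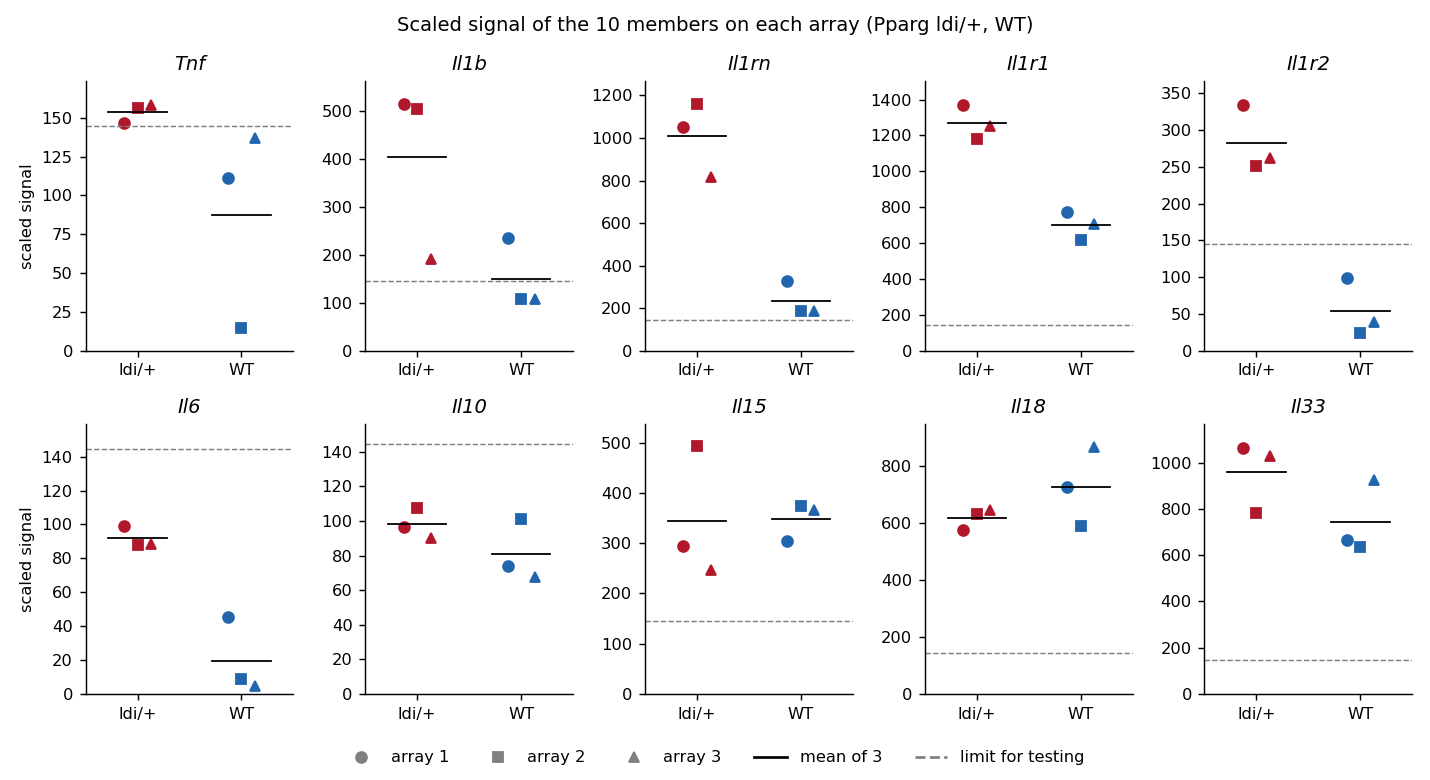
Scaled signal of each of the 10 genes on each array, from the probe set read for the gene, with Pparg ldi/+ left and wild type right in every panel; bars are means of 3 arrays and the dashed line is the signal of the limit for testing. Pparg ldi/+ lies wholly above wild type for Tnf, Il1rn, Il1r1, Il1r2 and Il6, as for 23.6% of all genes tested and 9.67% of dim genes. Tnf, Il1r2 and Il6 are dim. Il1b on Pparg ldi/+ array 3 (191) lies below wild-type array 1 (235).

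Il1rn, which encodes the IL-1 receptor antagonist, had the largest difference among the tested members. Its brightest probe set, 1451798_at, had signals of 1051, 1159 and 817 in Pparg ldi/+ fat, against 327, 188 and 186 in wild-type fat. The lowest Pparg ldi/+ array was above the highest wild-type array, as it was for 23.6% of all genes tested. The mean was 1009 ± 175 in Pparg ldi/+ and 234 ± 80.8 in wild type (SD, n = 3 each). Il1rn thus rose 3.99-fold (log2 difference 2.0 with an SE of 0.215 and a 95% confidence interval of 1.51 to 2.49; limma adjusted p = 0.000193). Permuting the 6 arrays gave a two-sided exact p of 0.1, below which 3 against 3 cannot go. With Pparg ldi/+ array 3 alone, the difference was 1.72 (limma adjusted p = 0.0138).

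The other probe sets of Il1rn moved the same way by different amounts. Probe set 1423017_a_at had signals of 750, 714 and 741 in Pparg ldi/+ fat, against 205, 41.0 and 36.4 in wild-type fat, a log2 difference of 2.86. Probe set 1425663_at had signals of 422, 552 and 570 in Pparg ldi/+ fat, against 184, 140 and 148 in wild-type fat, a log2 difference of 1.52. In a fit over 22519 probe sets, where 29.0% were called, both rose (limma adjusted p = 0.000894 and adjusted p = 0.000179). In wild type, array 1 was the highest of the 3 in each Il1rn probe set. The size of the first difference rests on dim wild-type signals, since its wild-type mean of 94.0 lies below the limit for testing.

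**Figure D2:**
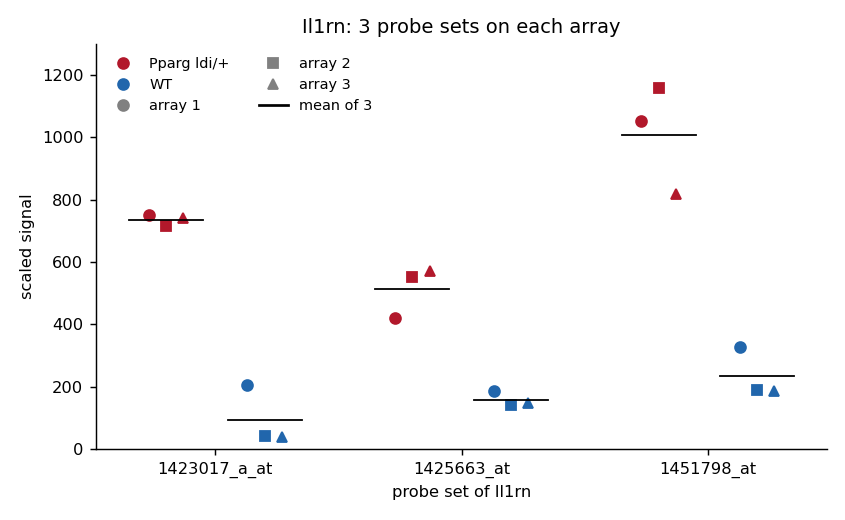
Scaled signal of the 3 probe sets of Il1rn on each array, Pparg ldi/+ left of wild type in each pair; bars are means of 3 arrays. All Pparg ldi/+ points lie above all wild-type points in each probe set, with log2 differences of 2.86 for 1423017_a_at, 1.52 for 1425663_at and 2.0 for 1451798_at.

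The sequences before the furthest upstream and furthest downstream of the 3 annotated starts of Il1rn, and before those of Il1b and Il6, are shown because these genes are textbook targets of NF-kB and AP-1, the factors downstream of IL-1 and TNF receptors. RefSeq windows of build GRCm38.p6 were at hand for 8 of the 10 genes, 12 windows in all, and each was searched over the 250 bases before the start. The NF-kB motif was GGG, any 2 bases, then TTTCC; the AP-1 motif was TGACTCA and the TATA box TATAAA. Both strands were searched, and no match overlapped another. They were picked after other spellings had been tried on the same windows. Capitals mark the matches, and coordinates and strands are those of the RefSeq table.
Il1rn, upstream start, chr2:24336610-24336859, plus strand: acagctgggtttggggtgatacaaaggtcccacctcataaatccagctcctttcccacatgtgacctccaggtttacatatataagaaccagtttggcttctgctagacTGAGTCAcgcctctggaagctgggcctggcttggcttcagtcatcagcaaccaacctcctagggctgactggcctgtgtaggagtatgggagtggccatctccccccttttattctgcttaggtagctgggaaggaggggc
Il1rn, downstream start, chr2:24345121-24345370, plus strand: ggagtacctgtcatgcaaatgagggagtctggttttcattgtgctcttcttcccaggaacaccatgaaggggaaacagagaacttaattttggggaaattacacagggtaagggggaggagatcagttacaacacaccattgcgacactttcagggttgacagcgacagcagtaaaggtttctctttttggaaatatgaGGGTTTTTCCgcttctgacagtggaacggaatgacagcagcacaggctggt
Il1b, chr2:129371140-129371389, minus strand: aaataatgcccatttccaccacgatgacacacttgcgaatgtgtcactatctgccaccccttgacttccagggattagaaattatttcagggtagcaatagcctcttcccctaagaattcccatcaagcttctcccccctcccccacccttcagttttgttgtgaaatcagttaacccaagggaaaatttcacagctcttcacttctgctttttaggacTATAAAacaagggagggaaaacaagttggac
Il6, chr5:30012864-30013113, plus strand: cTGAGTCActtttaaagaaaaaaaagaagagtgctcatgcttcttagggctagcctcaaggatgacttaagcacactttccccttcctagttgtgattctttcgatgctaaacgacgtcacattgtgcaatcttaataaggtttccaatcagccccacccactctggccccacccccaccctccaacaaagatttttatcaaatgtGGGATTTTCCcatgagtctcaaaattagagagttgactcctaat
The NF-kB letters were found in 2 of the 12 windows, that of the downstream Il1rn start, 51 bases before it, and that of Il6, 44 bases before its start. Of all 32851 windows in the table, 1.41% hold these letters. The window of the middle Il1rn start, which overlaps the downstream one, held none of the motifs. The AP-1 letters were found in the window of the upstream Il1rn start and in that of Il6, and in 4.46% of all windows. The TATA letters were found in windows of Tnf, Il1b, Il18 and Il33, and in 12.4% of all windows, and lay 31 bases before the start in Il1b. A match describes these letters and is no sign that a factor binds there.

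Il1r1, the receptor through which IL-1 signals, rose by less and with little spread. Its signals were 1371, 1180 and 1255 in Pparg ldi/+ fat, against 772, 617 and 706 in wild-type fat. Every Pparg ldi/+ array exceeded every wild-type array, as for 23.6% of all genes tested. The rise was 1.78-fold (log2 difference 0.84 with an SE of 0.11 and a 95% confidence interval of 0.58 to 1.09; limma adjusted p = 0.000591), and it was 0.82 with Pparg ldi/+ array 3 alone (limma adjusted p = 0.0242). The second probe set of the gene, 1459777_at, was at the bottom of the range, with means of 9.51 in Pparg ldi/+ and 9.79 in wild type. Taking the mean of both probe sets ended the call of Il1r1, at a log2 difference of 0.42 (limma adjusted p = 0.12).

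Il1r2, the decoy receptor, was dim over the 6 arrays because of its wild-type signals. It had 334, 251 and 262 in Pparg ldi/+ fat, against 98.7, 23.9 and 39.0 in wild-type fat. The groups did not overlap, and the log2 difference was 1.96. Its size depends on the offset, being 1.34 with 100 added and 2.49 with signals raised to a floor of 32. Of the 6992 genes not tested, 9.67% had all Pparg ldi/+ arrays above all wild-type arrays. When all genes were tested without a brightness limit, Il1r2 passed (limma adjusted p = 0.00444). On Pparg ldi/+ array 3 alone the difference was 1.87. Il1r2 and Il1r1 are neighbours on mouse chromosome 1, followed by Il1rl2, the IL-36 receptor gene, which was at 0.36 and did not pass (limma adjusted p = 0.141).

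Il1b, the gene of IL-1β, was the least uniform of the genes that rose. Its signals were 515, 503 and 191 in Pparg ldi/+ fat, against 235, 108 and 109 in wild-type fat. Pparg ldi/+ array 3 lay below wild-type array 1, so the groups overlapped. The mean was 403 ± 184 in Pparg ldi/+ and 151 ± 73.4 in wild type (SD, n = 3 each), and the rise was 2.32-fold (log2 difference 1.21 with an SE of 0.387 and a 95% confidence interval of 0.33 to 2.09; limma adjusted p = 0.0411). The exact two-sided permutation p was 0.2. Il1b was high on the Pparg ldi/+ arrays that were high in epididymal genes, and with array 3 alone the difference was 0.36 and did not pass (limma adjusted p = 0.658). The call also ended without Pparg ldi/+ array 1 (0.99) or array 2 (1.01), without wild-type array 2 or 3 (1.06 in each case), with array weights (1.12), with no brightness limit (limma adjusted p = 0.076) and with no intensity trend in the variance (limma adjusted p = 0.0603). Il1a, the neighbouring gene of IL-1 alpha, was dim, with signals of 9.74 to 15.2 in Pparg ldi/+ and 6.73 to 28.4 in wild type.

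**Figure D3:**
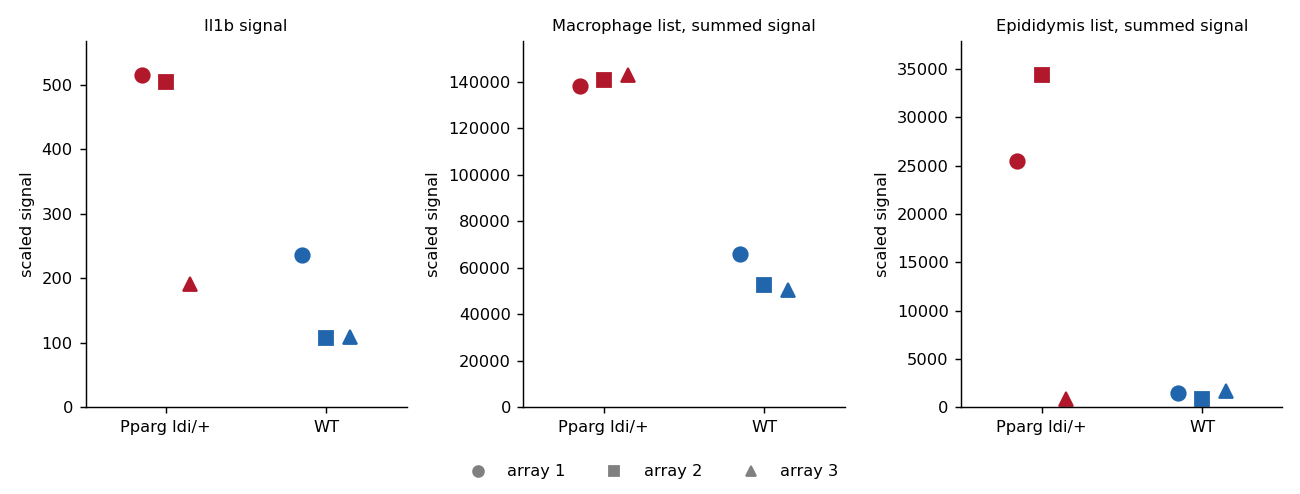
Scaled signal of Il1b (left), summed scaled signal of 20 macrophage genes (middle) and of 13 epididymal genes (right) on each array, Pparg ldi/+ left of wild type. The macrophage sum is 138210 to 142970 on all Pparg ldi/+ arrays, against 50465 to 65853 in wild type, whereas Il1b and the epididymal sum are low on Pparg ldi/+ array 3.

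Most macrophage markers rose in Pparg ldi/+ fat, as did Il1rn, Il1r1 and Il1b. Of 20 macrophage genes, all tested, 19 rose and 0 fell, and their summed signals were 138210 to 142970 in Pparg ldi/+ and 50465 to 65853 in wild type, led by Lyz2, Csf1r and C1qc. Among the wild-type arrays the macrophage sum was highest on array 1, as were Il1b, Il1rn, Il1r1, Il1r2 and Il6, whereas Il10 and Il15 were highest on array 2 and Tnf, Il18 and Il33 on array 3. In Pparg ldi/+ the sums were close, at 138210, 140800 and 142970, and highest on array 3, where Il1b was lowest. Il1rn was lowest there in probe set 1451798_at, but highest there in 1425663_at and lowest on array 2 in 1423017_a_at. Neutrophils, another known source of Il1b and Il1r2, had 9 listed genes summing to 1501 to 1922 in Pparg ldi/+ and 1001 to 1656 in wild type, and 7 of the 9 were dim. These neutrophil sums overlapped between the genotypes, and of the 2 genes tested Csf3r rose and S100a8 was at -0.26. The sums of 9 T cell genes, all dim, were 1211, 2052 and 1036 in Pparg ldi/+, against 575, 262 and 420 in wild type. B cell, natural killer and mast cell sums were also higher without overlap, at 1447 to 1684, 1087 to 2162 and 2629 to 3409 in Pparg ldi/+, against 500 to 817, 610 to 848 and 1225 to 2527 in wild type. Endothelial and mesothelial sums were lower without overlap, at 9638 to 11108 and 5932 to 6839 in Pparg ldi/+, against 18086 to 18897 and 10128 to 12439 in wild type; 6 of 9 endothelial and 6 of 8 mesothelial genes fell. The stromal progenitor sum was also lower without overlap, at 34043 to 35524 in Pparg ldi/+, against 35926 to 38708 in wild type. Of its 8 genes, 4 fell and 1 rose. No gene of these lists was at 0 on any array. The part of these cells in the cytokine differences was not tested, nor was that of the epididymal RNA on arrays 1 and 2.

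Tnf, the gene of TNF, was dim. It had signals of 147, 156 and 158 in Pparg ldi/+ fat, against 111, 14.4 and 137 in wild-type fat. Pparg ldi/+ lay wholly above wild type, as in 9.67% of genes not tested. The highest wild-type array still came close to the lowest Pparg ldi/+ array. The log2 difference of 0.84 rested largely on wild-type array 2, without which it was 0.25, and was 0.87 with Pparg ldi/+ array 3 alone. With no brightness limit Tnf did not pass (limma adjusted p = 0.277).

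Il6, a cytokine that acts on liver, fat and lymphocytes, was dim in both genotypes. Its signals were 99.2, 88.1 and 88.7 in Pparg ldi/+ fat, against 45.4, 9.01 and 4.73 in wild-type fat. Here too Pparg ldi/+ lay wholly above wild type, as in 9.67% of genes not tested. The log2 difference of 1.34 depends on the offset, being 1.77 with 16 added and 0.70 with 100 added. It was 1.31 with Pparg ldi/+ array 3 alone, and it passed when all genes were tested (limma adjusted p = 0.0178). Il10, the gene of an anti-inflammatory interleukin, was dim as well, at 96.5, 108 and 90.0 in Pparg ldi/+ fat, against 74.0, 101 and 67.6 in wild-type fat. Its groups overlapped, and the log2 difference was 0.21, or 0.12 with Pparg ldi/+ array 3 alone.

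Il33, Il15 and Il18 were above the limit for testing in both genotypes and did not pass the test. Il33 encodes an alarmin that stromal and other barrier cells release and that maintains lymphoid cells in fat. It had signals of 1065, 784 and 1028 in Pparg ldi/+ fat, against 666, 635 and 924 in wild-type fat, with overlap through the last of these. The log2 difference came to 0.36 (95% confidence interval -0.018 to 0.75, limma adjusted p = 0.133), and without wild-type array 3 it passed at 0.53 (limma adjusted p = 0.03). Il18 encodes an IL-1 family cytokine that caspase-1 also matures. It had 574, 629 and 643 in Pparg ldi/+ fat, against 724, 587 and 864 in wild-type fat (log2 difference -0.21, 95% confidence interval -0.53 to 0.11, limma adjusted p = 0.296). Il15 supports natural killer and memory T cells. It had 294, 494 and 247 in Pparg ldi/+ fat, against 304, 373 and 365 in wild-type fat, and Pparg ldi/+ array 2 was the highest of all 6 (log2 difference -0.060, 95% confidence interval -0.58 to 0.46, limma adjusted p = 0.866). With Pparg ldi/+ array 3 alone, Il33 was at 0.47, Il18 at -0.15 and Il15 at -0.44, the lowest value of Il15 in any alternative, and none of the 3 passed.

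**Figure D4:**
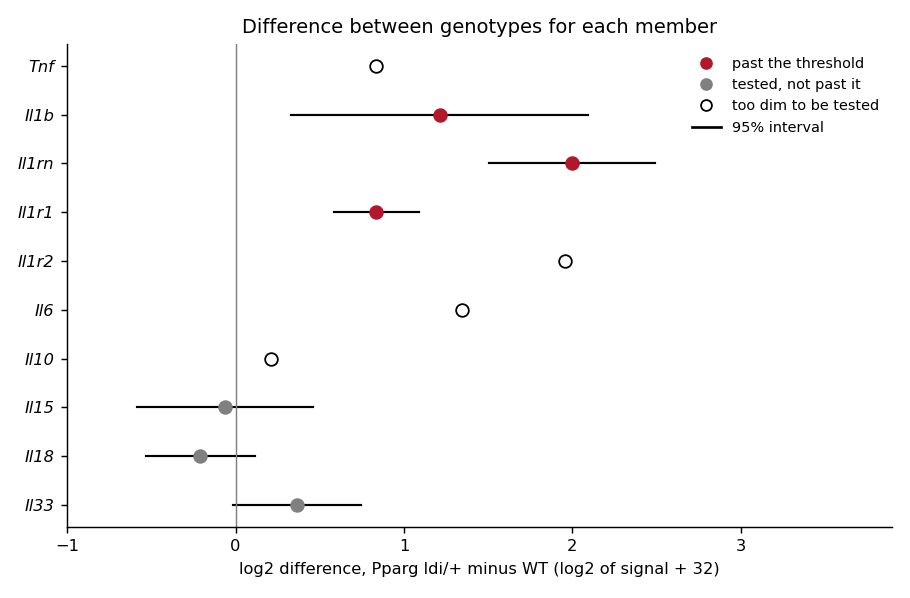
Log2 difference between Pparg ldi/+ and wild type for each gene, with the 95% confidence interval from limma for the 6 genes tested; open circles are genes too dim to be tested, which have no interval. The interval of Il1rn (1.51 to 2.49) lies above that of Il1r1 (0.58 to 1.09), and the intervals of Il15, Il18 and Il33 include 0.

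The genes around these cytokines were described from 6 lists of receptors, adaptors, regulators and other cytokines. Together they hold 93 genes, of which 86 were on the array with a symbol of their own and 68 were tested. Of these, 32 rose and 3 fell and 33 did not pass, beside 16.3% of all genes that rose, 16.4% that fell and 32.7% called in either direction. With Pparg ldi/+ array 3 alone, 11 of 65 were called, all of them rises, beside 14.5% of all genes called in that fit and 6.54% that rose. The median log2 difference of the 68 was 0.35, beside -0.0043 over all genes tested, and 8 of the 68 passed the brightness limit only through their Pparg ldi/+ values, among them Rhbdf2, Ltb, Il10ra and Il18r1, which had to be higher there to be tested.

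In the IL-1 family list, 8 of 17 tested genes rose and 0 fell. Casp1, the caspase that matures IL-1β and IL-18, had signals of 1679, 1572 and 1585 in Pparg ldi/+ fat, against 331, 293 and 347 in wild-type fat, and rose 4.63-fold (limma adjusted p = 2.72e-06). The other inflammasome genes moved with it: Pycard, the adaptor ASC, rose 2.59-fold (limma adjusted p = 0.000358) and the sensor gene Nlrp3 rose 1.76-fold (limma adjusted p = 0.00186). The other probe sets of Pycard were dim and differed by 0.54 and 0.34. With the mean of its probe sets, Pycard rose at 0.75. Casp1 and Pycard were called with Pparg ldi/+ array 3 alone as well, at 2.19 and 1.38, and Nlrp3 was not, at 0.79. Casp4, Il1rap, Il18r1, Il1rl2 and Il1a, like the genes below that did not pass, are named after their values were seen. Casp4, another inflammatory caspase, was at 431 on Pparg ldi/+ array 1 and at 1233 and 1286 on the other two, against 156, 142 and 256 in wild-type fat, and rose at a log2 difference of 2.12 (limma adjusted p = 0.00317), or 2.64 with Pparg ldi/+ array 3 alone. Il1rap, the accessory chain that IL-1, IL-33 and IL-36 receptors share, rose at 0.49 (limma adjusted p = 0.0382), and Il18r1, the IL-18 receptor gene, rose at 0.77 (limma adjusted p = 0.0257). The other tested probe set of Il1rap differed by 0.33 and was not called. The call of Il1rap was kept in 8 of the 16 alternatives that tested it, and ended with no brightness limit, with the replicate number as a block, with Pparg ldi/+ array 3 alone (0.43), and on leaving out any array other than the third wild-type one. That of Il18r1, dim in wild type and tested only through its Pparg ldi/+ arrays, was kept in 11 of 17. It ended with no brightness limit, without Pparg ldi/+ array 1 or 3, without wild-type array 2 or 3, and with Pparg ldi/+ array 3 alone (0.65). Of the 6 adaptor, kinase and ligase genes of the list that act downstream of these receptors, Myd88, the adaptor that the receptors recruit, rose at 0.41 (limma adjusted p = 0.015), and was at 0.42 and not called with Pparg ldi/+ array 3 alone. The call of Myd88 also ended without Pparg ldi/+ array 2. Irak1, Irak2, Irak3, Traf6 and Tollip did not pass, with differences of -0.16, -0.20, -0.011, 0.059 and -0.060.

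In the TNF list, 8 of 17 rose and 0 fell, and its receptors differed from each other. Tnfrsf1b, the TNF receptor found mainly on immune and endothelial cells, had signals of 3178, 3775 and 3632 in Pparg ldi/+ fat, against 844, 637 and 671 in wild-type fat, and rose 4.77-fold (limma adjusted p = 5.16e-06). Its dimmer probe set differed by 1.06. Tnfrsf1a, the widely expressed receptor, had 3237, 3455 and 3526 in Pparg ldi/+ fat, against 4056, 3405 and 3630 in wild-type fat, and at -0.11 it did not pass (limma adjusted p = 0.339). Rhbdf2, whose product carries the TNF-releasing protease to the cell surface, had means of 338 in Pparg ldi/+ and a dim 66.8 in wild type and rose 3.82-fold (limma adjusted p = 0.00038). Tnip1, a brake on NF-kB, rose 1.41-fold (limma adjusted p = 0.00211). Tnfrsf1b and Tnip1 were called with Pparg ldi/+ array 3 alone, at 2.30 and 0.56, and Rhbdf2, at 1.78, was too dim to be tested.

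Of 8 tested NF-kB factors and inhibitors, 4 rose and 0 fell. These were Nfkb2, a subunit of the alternative pathway, at 0.75 (limma adjusted p = 0.0022), the coactivator gene Bcl3 at 0.95, and the inhibitor genes Nfkbie at 0.83 and Nfkbib at 0.45. On array 3 alone of Pparg ldi/+, Nfkb2 was called, at 0.90, and Bcl3, Nfkbie and Nfkbib were not, at 0.94, 0.55 and 0.49. The call of Nfkbie also ended without Pparg ldi/+ array 1, and its second probe set differed by 1.84. That of Nfkb2 differed by 0.19 and was not called. Nfkbib also failed to pass when its probe sets were averaged (0.37), without Pparg ldi/+ array 2 or 3, and without wild-type array 3. Rela, which encodes the main activating subunit, was at -0.074 and did not pass.

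In the list of IL-6 and IL-10 receptors, relatives and signalling genes, 6 of 13 tested genes rose and 1 fell, while Il6 and Il10 were dim. Il10ra, the chain that binds IL-10, had signals of 452, 488 and 340 in Pparg ldi/+ fat, against 92.0, 166 and 145 in wild-type fat, and rose 2.78-fold (limma adjusted p = 0.00114), its wild-type mean being below the limit for testing. With the mean of its 3 probe sets, at 0.76, it was too dim to be tested. Il10rb, the chain shared with other receptors, rose 1.51-fold (limma adjusted p = 0.00115), and did not pass when its probe sets were averaged (0.39). Osmr, the oncostatin M receptor gene, rose 1.47-fold (limma adjusted p = 0.0014). Il6ra, which binds IL-6 and is named after its values were seen, rose at 0.74 (limma adjusted p = 0.00798). Its dimmer probe set differed by 0.29 and was not called. With Pparg ldi/+ array 3 alone, Il10ra was at 1.19 and Il6ra at 0.81 and neither was called, while Il10rb (0.56) and Osmr (0.54) were. The gene of this list that fell was Il6st, which encodes gp130, the signalling chain for IL-6 and its relatives, at -0.41 (limma adjusted p = 0.022). One of the 4 probe sets of Il6st differed by 0.27, and the call ended with their mean (-0.25), without Pparg ldi/+ array 2 or 3, without wild-type array 1 or 3, and with Pparg ldi/+ array 3 alone (-0.52). Its differences in the alternatives ran from -0.53 to -0.25.

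Among 6 tested genes of IL-15 and other common gamma chain receptors, 2 rose and 1 fell. Il7r, the IL-7 receptor of lymphocytes, had signals of 1164, 993 and 1042 in Pparg ldi/+ fat, against 259, 162 and 210 in wild-type fat, and rose 4.59-fold (limma adjusted p = 2.37e-05), or by 2.17 on the log2 scale with Pparg ldi/+ array 3 alone. Il4ra, the IL-4 and IL-13 receptor gene, rose at 0.50 (limma adjusted p = 0.0457), a call kept in 7 of 18 alternatives and not with Pparg ldi/+ array 3 alone (0.47). The transcription factor gene Stat5a fell, at -0.46 (limma adjusted p = 0.0125), and was at -0.28 and not called with Pparg ldi/+ array 3 alone. The call of Stat5a also ended with unscaled arrays and without Pparg ldi/+ array 1. Il15ra, the receptor that presents IL-15, was at 0.25 (limma adjusted p = 0.111).

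Of 18 other cytokine genes on the array, 11 were dim, among them Ifng, Il4, Il13 and Il12b. Of the 7 tested, 4 rose and 1 fell. Csf1, the macrophage growth factor gene, had signals of 2928, 3600 and 3754 in Pparg ldi/+ fat, against 1636, 1343 and 1504 in wild-type fat, and rose 2.26-fold (limma adjusted p = 0.000116). Il34 encodes the other ligand of the Csf1 receptor. It had 299, 360 and 337 in Pparg ldi/+ fat, against 458, 631 and 587 in wild-type fat, and fell, at -0.69 (limma adjusted p = 0.00714). With Pparg ldi/+ array 3 alone Csf1 was called, at 1.32, and Il34 was not, at -0.67. Ltb, the lymphotoxin beta gene next to Tnf on chromosome 17, rose 3.56-fold (limma adjusted p = 0.000208), with a wild-type mean below the limit for testing, and was called at 1.57 with Pparg ldi/+ array 3 alone, while Lta, on the other side of Tnf, was dim. Tgfb1 rose at 0.77 (limma adjusted p = 0.00114) and Il16 at 0.53 (limma adjusted p = 0.0155), and with Pparg ldi/+ array 3 alone neither was called, at 0.66 and 0.28. Il16 was also lost when its probe sets were averaged (0.20) and without Pparg ldi/+ array 1 or 2. The second probe set of Tgfb1 differed by 0.22 and was not called.

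**Figure D5:**
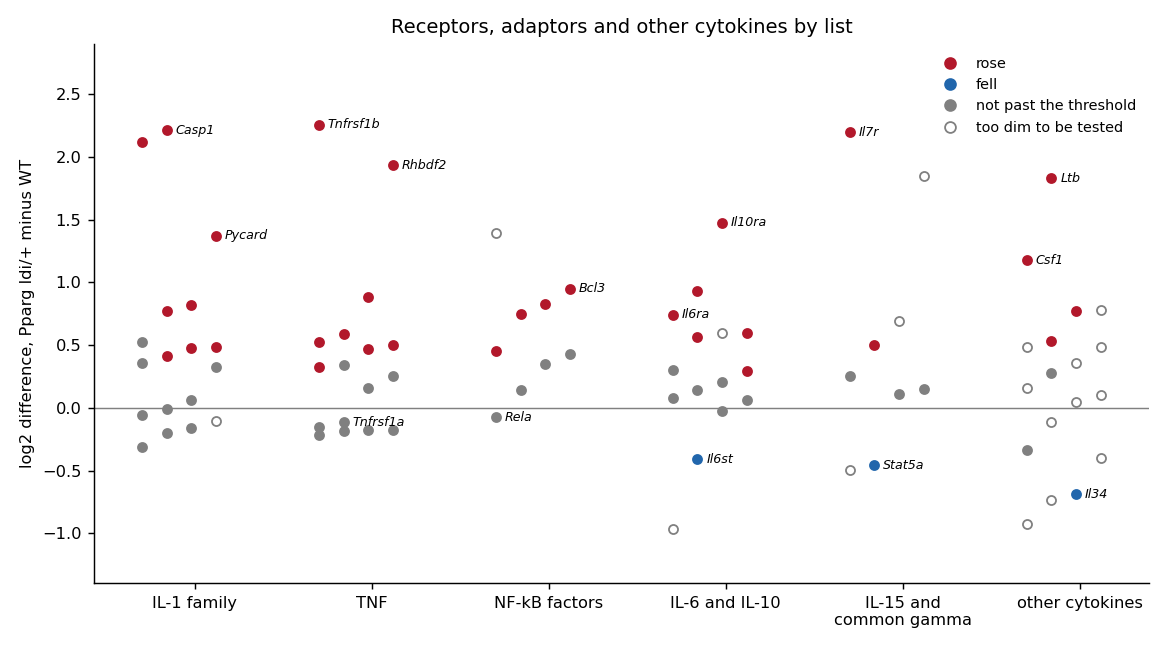
Log2 difference between Pparg ldi/+ and wild type for each gene of the 6 lists around the cytokines, 1 point a gene, with columns spread sideways for legibility and selected genes named. Rises such as Casp1 (2.21), Tnfrsf1b (2.25) and Il7r (2.20) stand against 3 falls, Il6st (-0.41), Stat5a (-0.46) and Il34 (-0.69).

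The genes with array profiles most like those of the 3 members that rose were found by the root mean square difference of centred log2 values over the 6 arrays. For Il1rn these were the Toll-like receptor gene Tlr1 (0.098) and Fcer1g, the Fc receptor gamma chain gene (0.11), with log2 differences of 2.0 and 2.08. For Il1r1 they were Man2a1, a Golgi mannosidase gene (0.049), and Scpep1, a carboxypeptidase gene (0.050). For Il1b the nearest were Slc7a5, an amino acid transporter gene (0.263), and Napsa, an aspartic protease gene (0.266), a looser match than for the other two.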

How the data were processed

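Transcripts of 6 epididymal fat pads were measured on 1 array each, 3 of Pparg ldi/+ and 3 of wild-type mice, with genotype and number taken from the titles. The authors deposited a linear signal intensity for each probe set. The submitters' processing notes name the software MAS5 for 2 samples of 6, Pparg ldi/+ arrays 1 and 2. These are also the arrays that were high in epididymal genes. Whether the other arrays were processed in the same way is not known. No source used here gives the settings of MAS5 or its calls of presence.

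Scaling brought the 2% trimmed mean of every array to 500, by factors of 2.12 to 2.49. The offset of 32 and the log2 step were then applied here to what the authors deposited. Of 45101 probe sets, 64 controls were left out; 34945 had a single symbol, 932 several and 9160 none. Symbols were updated by gene number for 34741, and 204 were kept. The files name no genome build, so coordinates are given only for the RefSeq windows. A gene was read from its brightest probe set, leaving out those with the suffix x_at where another existed. Genes below the median probe set mean were not tested. The test was limma 3.58.1 in R 4.3.3 (lmFit, eBayes with an intensity trend, two-sided, no covariates); rose and fell mean adjusted p under 0.05. Arrays correlated at 0.972 to 0.980 with their own genotype and 0.888 to 0.906 with the other, a description across genes.

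The members, the lists and the tests were chosen with earlier results of these data known. Genes named around the members are the 3 rises and 2 falls with the smallest p in each list, all calls of one direction where there were 5 or fewer, the brightest 3 genes of a marker list, and the 2 genes nearest in profile to each member that rose; others are marked as named after their values were seen. The alternatives changed the offset, scaling, brightness limit, variance model, array weights and choice of probe set, used the title's number as a block, left out each array, and used Pparg ldi/+ array 3 alone, which assumes that it varies like the wild-type arrays.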

Additional observations from a re-analysis of the deposited data

How the results depend on the processing

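Il1rn rose under all 18 alternatives run (log2 difference 1.72 to 2.24) and Il1r1 under 17 of 18 (0.42 to 0.91), the exception being the mean of its probe sets. Il1b kept its call in 9 of the 17 alternatives that tested it (0.36 to 1.64). No member fell under any alternative (0 of 18). The number of members that rose was 2 to 4. Il15, which did not pass, ranged over -0.33 to 0.13 when 1 array was left out, turning to 0.017 without Pparg ldi/+ array 1 and to 0.13 without array 3, and was -0.44 with array 3 alone. Of all tested genes 3668 were called, 2737 to 3346 when 1 array was left out, and 1616 with Pparg ldi/+ array 3 alone. Of 8 tested member probe sets 5 were called, all 3 of Il1rn among them, beside 29.0% of 22519 probe sets. The count was 4 to 6 when 1 array was left out, and 2 when only the brighter 30% were tested, which leaves 4. Of the genes around the members 35 were called, 23 to 32 when 1 array was left out, the lowest without Pparg ldi/+ array 1, and 11 with Pparg ldi/+ array 3 alone. These last fits hold fewer arrays. With the replicate number as a block, 3 members rose, 31 genes around them and 3166 of all genes were called. Same-numbered arrays deviated from their group means with correlations of -0.127, -0.0857 and -0.0945, so the numbers were not taken to pair the mice. No array was assigned to a litter here, so the litter matching was not modelled. Without detection calls, signals of Tnf, Il6 and Il10 cannot be told from background.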
